A study of Homo sapiens with 6 samples.

Results

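The proteasome genes examined here are the protein-coding genes whose symbol is PSMA, PSMB, PSMC, PSMD, PSME, PSMF or PSMG followed only by a number. There are 48 of them among 20019 protein-coding genes in the count table. The cells carry the label MDA-MB-453, the name of a human breast cancer line. They received 10 nM siRNA for 48 h, either targeting N6AMT1 (si-N6AMT1, 3 libraries) or scrambled (si-CN, 3 libraries), and their mRNA was then sequenced. Every library carries the same line name and comes from cells after transfection with a lipid reagent, and no untransfected cells were part of the comparison. N6AMT1 is a methyltransferase, and the comparison asks which mRNAs differ when its message is reduced. The sources do not say whether the replicates were separate cultures, so that p-values measure the spread between these libraries, which may be technical.

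The proteasome degrades proteins that carry ubiquitin chains. Its 20S core is a barrel of alpha rings, which form the gate, and beta rings, which hold the proteolytic sites, and the 19S cap binds ubiquitin, unfolds the substrate with a ring of ATPases and feeds it into the barrel. Interferon induces alternative catalytic subunits that replace the constitutive ones in newly built particles, the immunoproteasome, together with the PA28 activator, and these forms are known for producing peptides for MHC class I. Dedicated chaperones assemble both the core and the base of the cap.

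The libraries held 19739247 to 21289740 estimated counts. N6AMT1 was at 6.93, 6.86 and 6.65 CPM in the si-CN libraries and 3.08, 3.53 and 2.93 CPM in the si-N6AMT1 libraries, and fell by 1.10 on the log2 scale (SE 0.119, FDR = 3.65e-07, edgeR). CPM are counts scaled to a common library size with TMM factors. FDR denotes p-values of edgeR's quasi-likelihood test after Benjamini-Hochberg adjustment over 17320 genes, and genes under 0.05 were called. The markers went only in part with the cell label. TPM, a level scaled for transcript length and depth, was estimated in si-CN at 748 for KRT8, 725 for KRT18 and 455 for EPCAM, which are epithelial markers of the luminal list. Others of that list were low, with ERBB2 at 26.2, FOXA1 at 5.34, CDH1 at 2.30, GATA3 at 1.92 and KRT19 at 0.797. The basal keratins KRT5 and KRT14 were at 763 and 150.3 and mesenchymal VIM at 652. The name of the line is therefore used only as a label. Over the 8 luminal markers tested, the summed level in si-N6AMT1 was 1.04 times that in si-CN. Of these 8, 3 were called higher in si-N6AMT1 (37.5%, beside 9.78% of all genes tested). They were KRT8, KRT18 and CDH1, with log2 fold changes of 0.12, 0.076 and 0.54. EPCAM (-0.12) was called lower (12.5%, beside 11.5%). Of the 7 measured basal, stromal and blood markers, 4 passed the filter, and their summed level was also 1.04 times as high. Of these 4, KRT5 (0.11) and KRT14 (0.18) were called higher (50%, beside 9.78% of all genes tested) and 0 lower. The part of this in the results was not tested.

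Most proteasome genes differed little between the groups. Of the 46 genes tested, 6 rose in si-N6AMT1 (13.04%, beside 9.78% of all genes tested) and 3 fell (6.52%, beside 11.5%). Together 9 were called, 19.6% of the genes tested, where 21.3% of all genes were. Genes of similar level were called more often than all genes. Among 8892 tested genes within the range of the proteasome genes' mean CPM, 14.3% rose and 18.98% fell. The shares of all genes tested that are given beside the counts are therefore lower than those at similar level. The proteasome genes that rose were PSMB8, PSMB9, PSMB10, PSME1, PSME2 and PSMA6, and those that fell were PSMD2, PSMD11 and PSMD5. The libraries of the groups did not overlap for 19 genes, or 41.3%, beside 34.9% of all genes tested. The median log2 fold change of the proteasome genes was 0.0013, beside 0.0039 for all genes tested, with 23 above and 23 below 0. Their summed level was 5287 ± 69.2 CPM in si-N6AMT1 and 5275 ± 96.3 CPM in si-CN (SD, n = 3), so that the total differed by less than the spread between libraries. In bulk RNA a smaller share of expressing cells and less RNA per cell cannot be told apart.

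**Figure D1:**
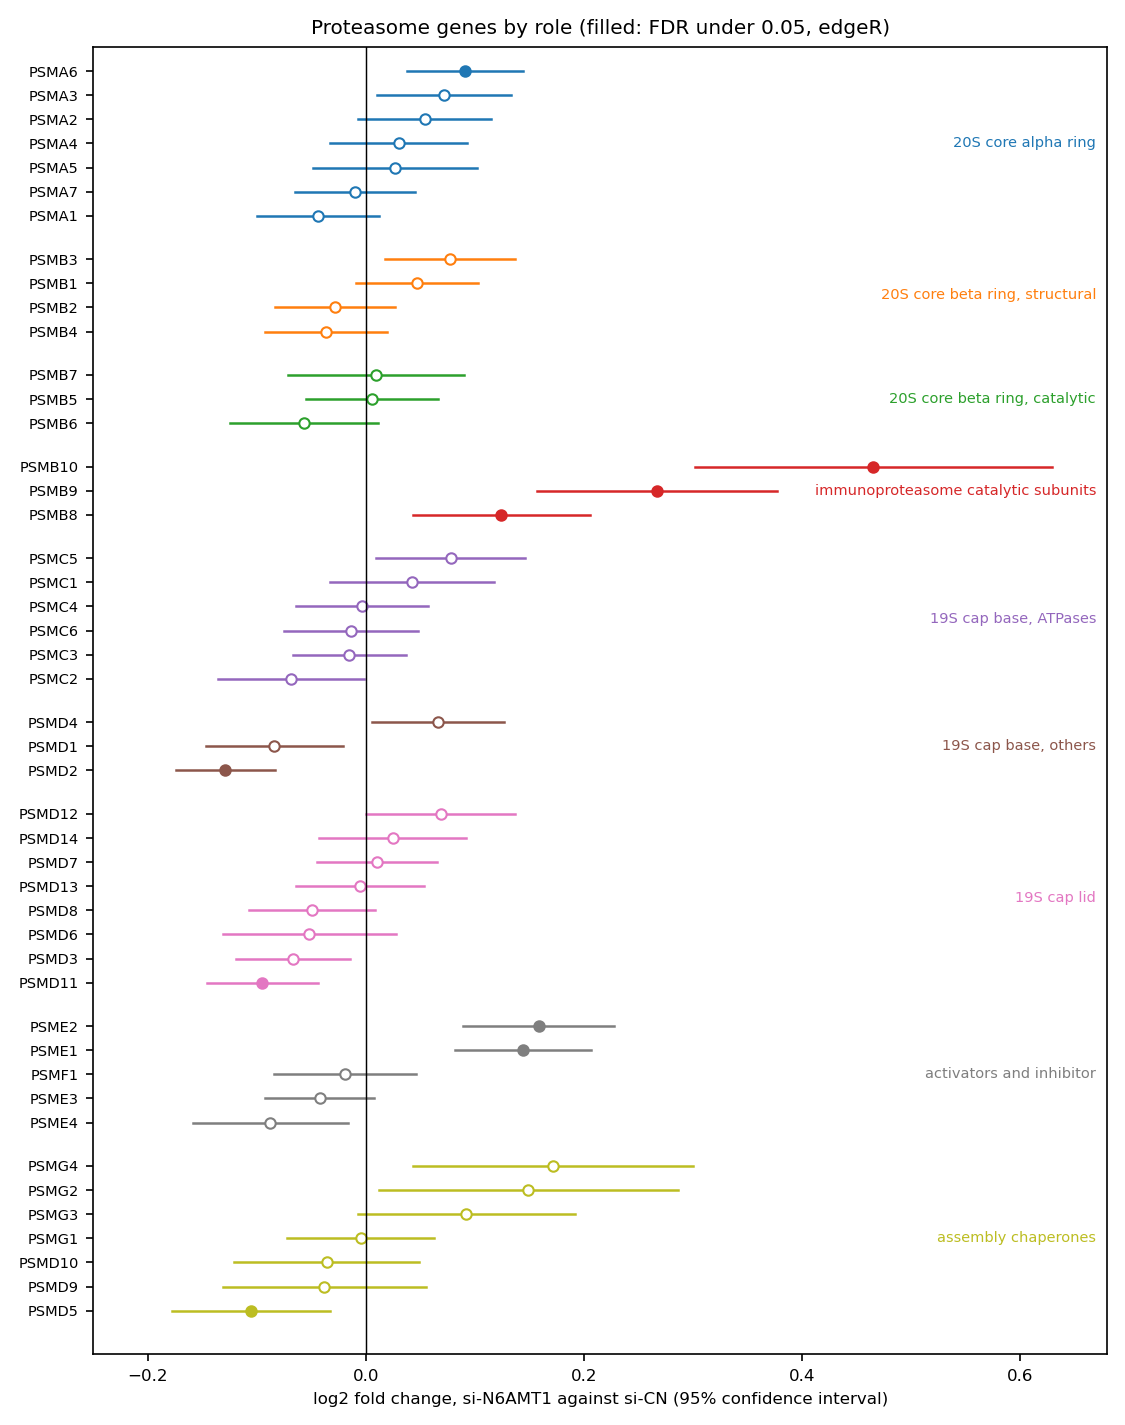
Log2 fold change of each of the 46 proteasome genes tested (x axis, si-N6AMT1 against si-CN) with its 95% confidence interval, grouped by role, with filled points for genes called at FDR under 0.05. PSMB10 stands farthest to the right at 0.47, PSMD2 farthest to the left at -0.13, and most intervals cross 0.

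The catalytic subunits of the immunoproteasome rose. PSMB10 (MECL-1), which takes the place of PSMB7, was at 10.8, 12.6 and 10.5 CPM in the si-CN libraries and 15.7, 14.9 and 16.1 CPM in the si-N6AMT1 libraries. All si-N6AMT1 libraries were above all si-CN libraries (15.6 ± 0.607 against 11.3 ± 1.17 CPM, SD, n = 3), and the difference was the largest among the proteasome genes (log2 fold change 0.47, SE 0.0788, FDR = 0.000128). PSMB9 (LMP2), which replaces PSMB6, was at 53.4, 47.3 and 45.9 CPM in the si-CN libraries and 53.6, 61.6 and 60.95 CPM in the si-N6AMT1 libraries. Its groups were separated only narrowly, since si-N6AMT1 replicate 1 lay next to si-CN replicate 1 (log2 fold change 0.27, SE 0.0531, FDR = 0.000689). PSMB8 (LMP7), which replaces PSMB5, was at 60.0014, 55.2 and 54.3 CPM in the si-CN libraries and 60.8, 62.3 and 61.5 CPM in the si-N6AMT1 libraries. Its si-CN replicate 1 lay close to the si-N6AMT1 libraries, and the change was the smallest of the 3 (log2 fold change 0.12, SE 0.0390, FDR = 0.0248). The call for PSMB8 was lost without si-CN replicate 2 (FDR = 0.101, edgeR), without si-CN replicate 3 (0.144), without si-N6AMT1 replicate 2 (0.0827) and without si-N6AMT1 replicate 3 (0.0631), and DESeq2 gave 0.163. The summed level of the immunoproteasome subunits was 136 ± 4.94 CPM against 117 ± 6.94 CPM, 1.16 times as high in si-N6AMT1. PSMB11, the catalytic subunit of the thymus form, had 1 count in si-N6AMT1 replicate 1 and 0 in the other libraries, under the floor of 3 counts per library, and was not tested.

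Both genes of the PA28 activator, the ring that opens the core without ATP, also rose. PSME1 (PA28 alpha) was at 171, 169 and 165 CPM in the si-CN libraries and 176, 192 and 190.0 CPM in the si-N6AMT1 libraries. The lowest si-N6AMT1 library was above the highest si-CN library (log2 fold change 0.14, SE 0.0299, FDR = 0.00106). PSME2 (PA28 beta) was at 84.2, 82.7 and 79.2 CPM in the si-CN libraries and 87.9, 92.4 and 94.1 CPM in the si-N6AMT1 libraries. The groups were again separate (log2 fold change 0.16, SE 0.0334, FDR = 0.00125). The remaining activators and the inhibitor were not called: PSME3 (PA28 gamma, the nuclear homologue) had a log2 fold change of -0.042 (FDR = 0.245), PSME4 (PA200) -0.088 (FDR = 0.0743) and PSMF1 (PI31) -0.019 (FDR = 0.730). PSMB8, PSMB9, PSMB10, PSME1 and PSME2 are known to be induced by interferon, and 5 of these 5 rose. They were grouped after their values had been seen. Among the other 41 genes tested, 1 rose (2.44%, beside 9.78% of all genes tested) and 3 fell (7.32%, beside 11.5%).

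The constitutive catalytic subunits did not pass the test. PSMB5, which carries the chymotrypsin-like site, was at 98.3, 96.2 and 97.7 CPM in the si-CN libraries and 95.9, 100.4 and 97.1 CPM in the si-N6AMT1 libraries (log2 fold change 0.0058, SE 0.0292, FDR = 0.922). PSMB6, with the caspase-like site, was at 88.8, 89.99 and 87.2 CPM in the si-CN libraries and 83.3, 83.1 and 89.2 CPM in the si-N6AMT1 libraries (log2 fold change -0.057, SE 0.0328, FDR = 0.252). PSMB7, with the trypsin-like site, was at 138, 144 and 125 CPM in the si-CN libraries and 133, 134 and 142 CPM in the si-N6AMT1 libraries (log2 fold change 0.0094, SE 0.0388, FDR = 0.905). Their libraries overlapped between groups, and their 95% confidence intervals reached from -0.12 to 0.090 on the log2 scale. Within each library, the immunoproteasome subunit was set against the constitutive subunit it replaces, on estimated TPM, which allows for gene length. PSMB8 was 58.5% ± 0.730 in si-N6AMT1 and 53.9% ± 2.62 in si-CN of PSMB5 (SD, n = 3). PSMB9 was 55.8% ± 4.004 in si-N6AMT1 and 44.6% ± 3.56 in si-CN of PSMB6. PSMB10 was only 11.5% ± 0.339 in si-N6AMT1 and 8.38% ± 0.470 in si-CN of PSMB7. These percents depend on the transcript length chosen for each gene. With the median length of the protein-coding transcripts, chosen after seeing the data, PSMB8 and PSMB5 came to 68.9 and 148 TPM in si-CN. PSMB9 and PSMB6 came to 84.5 and 143 TPM, and PSMB10 and PSMB7 to 20.4 and 228 TPM. The groups did not overlap in any of the 3 ratios, which were higher in si-N6AMT1 by 0.12, 0.32 and 0.46 on the log2 scale. Each gave p = 0.1 in a two-sided exact permutation test, the smallest that 3 libraries against 3 allow, and 0.1 after adjustment over the 3 ratios.

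The promoters of these genes are shown because 5 of the 6 genes that rose are known interferon targets. RefSeq windows (GRCh38.p14) from 250 bases before to 50 bases after a gene's start were found for 42 of the 48 genes. The windows were searched on both strands for GAAANNGAAA, the core of the interferon-stimulated response element, and matches are printed in capitals. The match lies 21 bases before the start in PSMB10 (chr16:67936801-67937100, minus strand) and 28 bases before it in PSME2 (chr14:24146561-24146860, minus strand). It reads on the opposite strand 5 bases after the start in PSME1 (chr14:24135944-24136243, plus strand). In PSMB8 (chr6:32843998-32844297, minus strand) it also reads on the opposite strand. There it runs across one of 2 starts, with its first base 4 bases before that start. The window of PSMB9 (chr6:32853942-32854241, plus strand) held none.
PSMB10: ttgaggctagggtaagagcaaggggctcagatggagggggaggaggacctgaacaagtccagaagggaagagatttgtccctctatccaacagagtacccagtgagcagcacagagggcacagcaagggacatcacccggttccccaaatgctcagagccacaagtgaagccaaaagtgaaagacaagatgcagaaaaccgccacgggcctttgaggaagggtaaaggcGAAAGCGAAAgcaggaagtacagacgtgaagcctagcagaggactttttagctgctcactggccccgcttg
PSME2: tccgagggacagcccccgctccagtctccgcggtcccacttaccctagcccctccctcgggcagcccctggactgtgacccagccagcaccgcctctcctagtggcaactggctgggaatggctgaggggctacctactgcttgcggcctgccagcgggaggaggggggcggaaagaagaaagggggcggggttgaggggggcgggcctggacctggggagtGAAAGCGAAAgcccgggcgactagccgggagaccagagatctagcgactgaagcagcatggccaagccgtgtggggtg
PSME1: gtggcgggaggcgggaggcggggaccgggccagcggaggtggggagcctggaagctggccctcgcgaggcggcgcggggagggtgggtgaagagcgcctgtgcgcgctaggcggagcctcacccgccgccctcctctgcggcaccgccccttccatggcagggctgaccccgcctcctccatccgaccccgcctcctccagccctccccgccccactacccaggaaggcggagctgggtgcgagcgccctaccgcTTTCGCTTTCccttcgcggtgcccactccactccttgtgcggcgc
PSMB8: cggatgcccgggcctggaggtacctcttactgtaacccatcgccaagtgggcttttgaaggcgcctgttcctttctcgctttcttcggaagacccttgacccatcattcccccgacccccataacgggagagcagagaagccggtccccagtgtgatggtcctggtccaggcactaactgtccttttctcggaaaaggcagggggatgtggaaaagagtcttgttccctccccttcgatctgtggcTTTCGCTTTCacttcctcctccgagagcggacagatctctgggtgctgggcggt
PSMB9: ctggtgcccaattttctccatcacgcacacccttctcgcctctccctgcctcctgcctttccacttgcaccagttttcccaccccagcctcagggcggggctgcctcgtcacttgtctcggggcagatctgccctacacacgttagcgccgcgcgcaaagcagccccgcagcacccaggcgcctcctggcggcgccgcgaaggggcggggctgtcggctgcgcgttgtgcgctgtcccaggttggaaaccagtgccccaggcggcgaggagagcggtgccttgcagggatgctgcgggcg

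A match was present for 7 of the 42 proteasome genes (16.7%), beside 4.08% of 11714 tested genes with a window and 4.38% of all 27305 genes with one. Besides the 4 printed, the genes were PSMA4, PSMB4 and PSMG4, none of which was called. In PSMB8, PSMB10, PSME1, PSME2 and PSMG4 the match was the same 10 bases, GAAAGCGAAA on one strand or the other, which 0.222% of tested genes and 0.125% of all genes held. That form was singled out after the matches had been seen. PSMG4, a chaperone of the core, was at 17.7, 18.3 and 17.2 CPM in the si-CN libraries and 20.9, 19.5 and 19.5 CPM in the si-N6AMT1 libraries, with separate groups and log2 fold change 0.17, SE 0.0619, FDR = 0.0514. TTCNNNGAA, the core of the interferon gamma activated site, was in the windows of 8 genes (19.05%, beside 8.43% of tested genes), of which PSMB8 rose and PSMD2 fell. TGACNNNGC, the core of the antioxidant response element, was in 15 (35.7%, beside 19.1%), of which PSMB9, PSME1 and PSME2 rose and PSMD5 fell. CCAAT was in 20 (47.6%, beside 42.97%), of which PSMB9 rose. A match describes these letters alone.

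The constitutive 20S core showed few differences. Of its 14 genes tested, 1 rose (7.14%, beside 9.78% of all genes tested) and 0 fell (beside 11.5%) by edgeR. Of the 14, 0 were lower at an unadjusted p under 0.05 and 0 were lower by DESeq2. The 14 genes had log2 fold changes from -0.057 to 0.091 and a summed level of 2187 ± 33.9 against 2166 ± 65.2 CPM. PSMA6, an alpha ring subunit, was at 214, 200.1 and 205 CPM in the si-CN libraries and 217, 222 and 219 CPM in the si-N6AMT1 libraries. The si-CN replicate 1 library came close to the si-N6AMT1 libraries (log2 fold change 0.091, SE 0.0257, FDR = 0.0133). The call was lost without si-CN replicate 2 (FDR = 0.0996, edgeR), si-CN replicate 3 (0.0556) or si-N6AMT1 replicate 2 (0.0600), and DESeq2 gave 0.0569. The structural beta subunits PSMB1 to PSMB4 were not called, the largest difference being 0.077 for PSMB3 (FDR = 0.0603). PSMA8, the alpha subunit of the testis form, had 1 count in si-N6AMT1 replicate 1 and 0 elsewhere and was not tested.

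In the 19S cap, 2 of 17 genes fell (11.8%, beside 11.5% of all genes tested) and 0 rose (beside 9.78%) by edgeR. Of the 17, 2 were higher at an unadjusted p under 0.05 and 0 were higher by DESeq2. A log2 fold change below 0 was found for 11 (summed level 2007 ± 15.5 against 2049 ± 17.5 CPM). PSMD2, a scaffold of the base that docks ubiquitin-like domains, was at 317, 314 and 312 CPM in the si-CN libraries and 289, 289.6 and 284 CPM in the si-N6AMT1 libraries. Replicates lay close together and the groups were well apart (log2 fold change -0.13, SE 0.0219, FDR = 0.000131). PSMD11, a lid subunit, was at 164, 163 and 167 CPM in the si-CN libraries and 154, 155 and 153 CPM in the si-N6AMT1 libraries (log2 fold change -0.10, SE 0.0246, FDR = 0.00691). Its call was lost by a narrow margin without si-CN replicate 3 (FDR = 0.0502, edgeR) and with DESeq2 (0.0508). PSMD1, the other large scaffold of the base, missed the threshold (log2 fold change -0.084, SE 0.0301, FDR = 0.0507), as did the lid subunit PSMD3 (log2 fold change -0.067, SE 0.0253, FDR = 0.0640). None of the ATPases PSMC1 to PSMC6 was called, and their log2 fold changes ran from -0.068 (PSMC2) to 0.078 (PSMC5). The ubiquitin receptor PSMD4 had 0.066 (FDR = 0.117) and the deubiquitinase PSMD14 0.025 (FDR = 0.658).

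Among the 7 assembly chaperones, 1 fell (14.3%, beside 11.5% of all genes tested) and 0 rose (beside 9.78%) by edgeR. Of the 7, 2 were higher at an unadjusted p under 0.05 and 0 were higher by DESeq2. PSMD5, which holds ATPases of the base during assembly, was at 61.02, 61.5 and 63.5 CPM in the si-CN libraries and 57.01, 58.7 and 57.2 CPM in the si-N6AMT1 libraries (log2 fold change -0.11, SE 0.0349, FDR = 0.0345). The groups did not overlap, but the call was lost under 9 of 15 alternatives, among them DESeq2 (FDR = 0.222), and without si-N6AMT1 replicate 1 (0.0976, edgeR), si-N6AMT1 replicate 3 (0.102), si-CN replicate 2 (0.0614) or si-CN replicate 3 (0.162). PSMD9 and PSMD10, the other base chaperones, had -0.038 and -0.036, and the core chaperones PSMG1, PSMG2 and PSMG3 had -0.0046, 0.15 and 0.092, with none called. Over the 37 tested proteasome genes that were not called, the 95% confidence intervals reached from -0.16 to 0.30 on the log2 scale, the upper bound being that of PSMG4.

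Levels per gene length in si-CN, as estimated TPM, covered a wide range. The highest were PSMA1 (582 ± 15.8, SD, n = 3), PSMB3 (467 ± 14.03) and PSMA7 (463 ± 8.98), of which PSMB3 and PSMA7 lay within their spread of each other. The lowest tested were PSMF1 (25.2 ± 0.218), PSMB10 (25.7 ± 2.79) and PSMD9 (29.6 ± 0.952), where PSMF1 and PSMB10 did not differ beyond their spread. The median over the genes tested was 287 in the constitutive core and 129.8 in the cap, while PSMB8 and PSMB9 were at 112 ± 4.72 and 107 ± 7.47. This order depends on the transcript chosen for each gene. With the median length of its protein-coding transcripts, chosen after seeing the data, PSMF1 came to 92.2 TPM and PSMA4 went from 94.1 to 329.

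**Figure D2:**
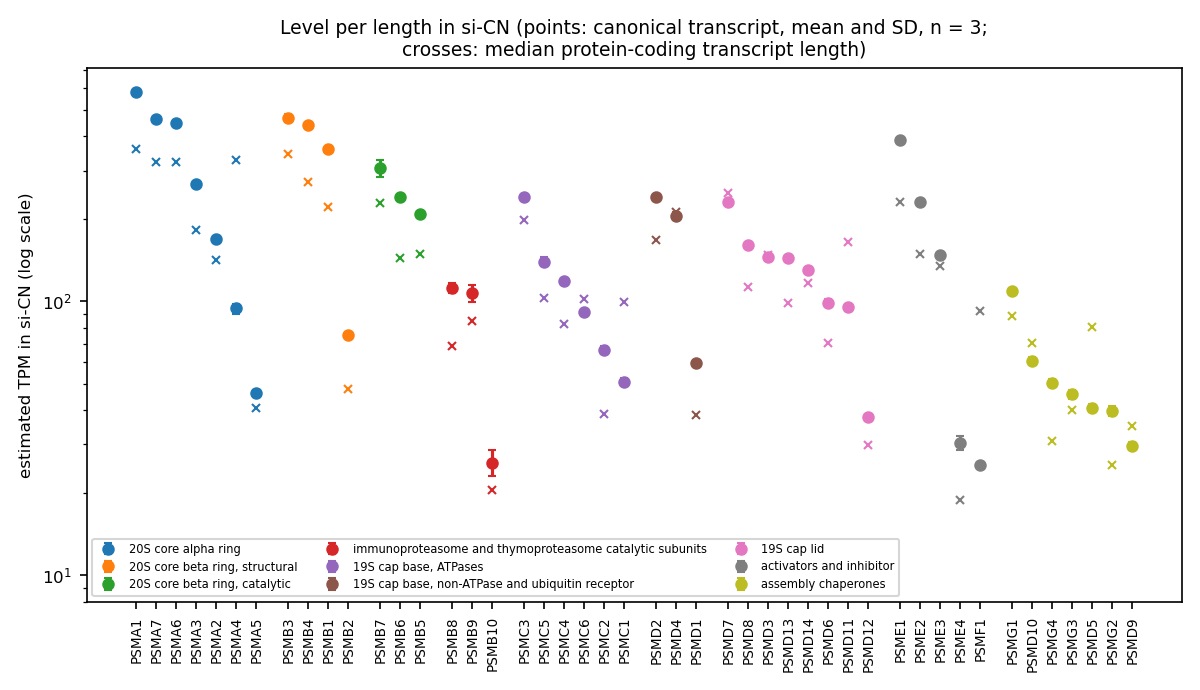
Level per gene length of the 46 tested proteasome genes in si-CN (y axis, estimated TPM, log scale), as mean and SD of 3 libraries with canonical transcript lengths (points) and as means with median transcript lengths (crosses). PSMA1 is highest at 582, PSMB10 lies well below PSMB8 and PSMB9, and the crosses move several genes.

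Some of these genes share bases with others. Exonic bases are shared with another gene for 23 of the 48, and kallisto divides reads among such transcripts. PSMB8 and PSMB9 lie side by side on opposite strands and share 139 exonic bases, and the long noncoding RNA PSMB8-AS1 overlaps both and rose (log2 fold change 0.45, SE 0.119, FDR = 0.00756). Whether counting used the strand is not given in the sources used here, so that these 3 cannot be fully told apart. PSMB10 shares 640 bases with an unnamed protein-coding gene on its own strand. Adding the counts of such same-strand genes, an alternative chosen after seeing the data, gave 0.43 for PSMB10 and left 6 proteasome genes higher and 3 lower. The counts of PSMB8-AS1, which lies on the strand of PSMB9, were not added, and PSMB9 stayed at 0.27. In GRCh37, PSMB10 lies at chr16:67968409-67970767, PSMB8 at chr6:32808494-32812456, PSMB9 at chr6:32811913-32827628, PSME1 at chr14:24605372-24608176, PSME2 at chr14:24612571-24616779, PSMA6 at chr14:35747839-35786699, PSMD2 at chr3:184016986-184026838, PSMD11 at chr17:30771397-30810337 and PSMD5 at chr9:123577774-123605229. The 3′ UTR sequences TTCACAT and TCACATA, which earlier work on these same libraries had picked out among genes that fell, were in 4 of 45 tested proteasome genes with a UTR of at least 50 bases (8.89%, beside 22.5% of 13160 genes). PSMC2, PSME3, PSMF1 and PSMD9 held one and were not called, and PSMD2, PSMD11 and PSMD5 held none.

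Genes that work beside the proteasome were read from the same fit. Of 13 other proteasome-bound proteins and assembly factors, 1 rose (7.69%, beside 9.78% of all genes tested) and 1 fell (7.69%, beside 11.5%). POMP, the maturation factor of the core, rose (log2 fold change 0.13, SE 0.0311, FDR = 0.00416) and ECPAS, which scaffolds the 26S particle, fell (log2 fold change -0.14, SE 0.0266, FDR = 0.000430). Of 11 genes for transcription of proteasome genes, 2 rose (18.2%, beside 9.78% of all genes tested) and 4 fell (36.4%, beside 11.5%), with a median log2 fold change of -0.058. NFE2L1, the factor that restores proteasome genes when the proteasome is inhibited, was not called (log2 fold change 0.0069, SE 0.0234, FDR = 0.883), while its protease DDI2 and deglycosylase NGLY1 fell, with log2 fold changes of -0.10 and -0.10, as did its partners MAFF (-0.16) and MAFK (-0.17). NFE2L3 (0.19) and NFE2L2 (0.10) rose. Of 9 tested genes that deliver ubiquitinated proteins, UBQLN1 (-0.076) and UBQLN2 (-0.10) fell (22.2%, beside 11.5% of all genes tested). The rest were not called. Of 6 genes of ubiquitin itself and its activation, 3 rose (50%, beside 9.78% of all genes tested) and 1 fell (16.7%, beside 11.5%). UBB, a polyubiquitin gene, rose (0.12) and the activating enzyme UBA6 fell (-0.12).

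Of 9 genes for interferon-controlled antigen processing, 5 rose (55.6%, beside 9.78% of all genes tested) and 2 fell (22.2%, beside 11.5%). Their median log2 fold change was 0.080, beside 0.0039 for all genes tested. IRF1, a transcription factor of immunoproteasome genes, was at 64.2, 62.3 and 63.98 CPM in the si-CN libraries and 74.1, 76.2 and 79.6 CPM in the si-N6AMT1 libraries (log2 fold change 0.27, SE 0.0347, FDR = 3.82e-06). B2M, the light chain of MHC class I, rose by 0.24 on the log2 scale, NLRC5, an activator of MHC class I genes, by 0.24, the peptide transporter TAP1 by 0.11 and TAPBP, which loads peptides, by 0.080. ERAP1, which trims peptides, fell by 0.15 on the log2 scale.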

How the data were processed

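Stranded mRNA libraries, 3 labelled si-N6AMT1 and 3 labelled si-CN, were sequenced. Per the labels, the authors used Trim Galore, kallisto v0.46.0 and the build hg19, and deposited estimated counts per gene, not normalized, as whole numbers. Whether counting used the strand is not given in the sources used here. The table held no columns of other samples.

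Groups were taken from the sample labels. The proteasome genes and the other lists were chosen with earlier results of these data known. Genes passing filterByExpr (minimum count 10) were tested with edgeR v4.0.16 (quasi-likelihood test, TMM scaling, no covariates, Benjamini-Hochberg threshold 0.05) in R v4.3.3, on all 6 libraries. Proteasome genes were read from the fit over 17320 genes. Symbols were matched for 62149 of 62438 identifiers, and unmatched ones held at most 0.137% of counts. For TPM, canonical transcript lengths were used (GENCODE lifted to GRCh37). Ratios of subunits were compared by exact permutation over libraries (scipy v1.17.1). All called proteasome genes were named, and the others were given by role. Some members of the other lists are not reported here. Alternatives were DESeq2 v1.42.0 on all genes or on those above a TPM minimum, limma-voom (limma v3.58.1), other size factors, no expression filter, mitochondrial genes left out, a replicate block alone or joined to a GC correction, each library left out, and, added after seeing the data, counts of overlapping genes. The code was tested on simulated data. Intervals and floors cover the spread or counting error of these libraries only.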

Additional observations from a re-analysis of the deposited data

How the results depend on the processing

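PSMB9, PSMB10, PSME1, PSME2 and PSMD2 kept their calls under all 15 alternatives, and PSMB8, PSMA6, PSMD11 and PSMD5 lost theirs under some. None of the 9 changed direction. PSMD5 was also lost without the expression filter (FDR = 0.0529, edgeR) and with the replicate block (0.0564), and PSMB8 with the block and a GC correction (0.0858). DESeq2 called 1 proteasome gene lower and 4 higher, with 1136 of all genes lower and 796 higher where edgeR called 1993 and 1694. DESeq2 on genes of at least 1 TPM called 1239 lower and 930 higher. Leaving out each library gave 1 to 4 proteasome genes lower and 4 to 8 higher, with the lowest count of genes that fell, 1 (PSMD2), without si-CN replicate 3. Over all genes it gave 1540 to 1818 lower and 1295 to 1523 higher. The cause was not tested. Same-numbered libraries did not deviate together (correlations -0.0381, -0.0422 and 0.00997). No pairing by number was seen, though so few libraries cannot exclude a weak one. The replicate block gave 2 proteasome genes lower and 6 higher, with 1804 and 1522 of all genes. With the block and a GC correction, 11 proteasome genes were called, 7 of them among the 9, and uncalled PSMB5, PSMC6 and PSMG1 changed sign to -0.0056, 0.032 and 0.024. Leaving out a library changed the sign of 11 uncalled genes, whose log2 fold changes ran from -0.0052 to 0.068 for PSMA4, -0.0035 to 0.059 for PSMA5, -0.025 to 0.016 for PSMA7, -0.013 to 0.021 for PSMB5, -0.048 to 0.056 for PSMB7, -0.020 to 0.0091 for PSMC4, -0.015 to 0.0077 for PSMD13, -0.00088 to 0.048 for PSMD14, -0.012 to 0.028 for PSMD7, -0.034 to 0.0076 for PSMF1 and -0.019 to 0.020 for PSMG1.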
